A study of Mus musculus with 25 samples.

Results

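The adrenergic and muscarinic receptor genes Adra1a, Adra1b, Adra2a, Adra2c, Adrb1, Chrm1, Chrm3, Chrm4 and Chrm5, were followed in 2 mouse islet tumour lines. These 9 genes were taken by symbol from the 24439 genes of the RNA-seq tables, and the 57 ATAC-seq peaks of 65053 whose nearest annotated gene was among them were taken with them. The lines were αTC1 (alpha TC1 clone 6, a single clone from a mouse glucagonoma) and βTC6 (beta-TC-6, from a mouse insulinoma), both made with SV40 large T antigen under an islet hormone promoter. RNA-seq covered 3 libraries of each line, and ATAC-seq, in which a transposase cuts accessible DNA, covered 5 libraries of each line and 9 mixtures holding 10% to 90% αTC1 cells in steps of 10%, with 1 library each. No agent or allele set the groups apart beyond the lines themselves, but their media differed in serum, glucose, HEPES, amino acids, albumin and pyruvate, so line and medium cannot be told apart. Whether replicates came from separate cultures is not given in the sources used here, so p-values measure the spread between libraries, which may be technical.

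Adrenergic receptors bind noradrenaline and adrenaline, and muscarinic receptors bind acetylcholine, the transmitters of the sympathetic and parasympathetic nerves that reach pancreatic islets. All are membrane-spanning receptors that act through G proteins. The alpha-1 receptors (Adra1a, Adra1b) and M1, M3 and M5 (Chrm1, Chrm3, Chrm5) couple to Gq, which activates phospholipase C and releases stored calcium. The alpha-2 receptors (Adra2a, Adra2c) and M4 (Chrm4) couple to Gi/o, which lowers cyclic AMP and opens inward-rectifier potassium channels, and the beta-1 receptor (Adrb1) couples to Gs, which raises cyclic AMP. In beta cells the alpha-2A receptor is known for holding back insulin release and M3 for enhancing it.

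βTC6 cells held Adra2a and Chrm3 transcripts that were at or near 0 in αTC1 cells, and chromatin at both start sites was more open in βTC6 than in αTC1. The windows below cover the 200 bases before the start sites of the 3 receptors whose level reached the testing minimum, read on mm9 in the direction of transcription. Capitals mark matches on either strand. The letters searched were the E-box CANNTG, of which CAGCTG is a special case that was also counted by itself. They were also the homeobox core TAATTA and the forkhead core TGTTTAC, which bind those factor families. The cyclic AMP response element TGACGTCA was searched as well. The promoter elements were the GC box GGGCGG, and for the TATA box the letters TATAAA. The Adra2a window lies at chr19:54119472-54119671 on the plus strand, before the GENCODE vM1 start, which is 77 bases upstream of the RefSeq start. The Chrm3 window lies at chr13:10360050-10360249 on the minus strand and the Chrm4 window at chr2:91762146-91762345 on the plus strand, and both match the RefSeq promoters.
Adra2a promoter: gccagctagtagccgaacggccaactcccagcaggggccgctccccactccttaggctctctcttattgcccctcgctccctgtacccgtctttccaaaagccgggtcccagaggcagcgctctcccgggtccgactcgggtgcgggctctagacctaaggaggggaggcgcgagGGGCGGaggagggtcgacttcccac
Chrm3 promoter: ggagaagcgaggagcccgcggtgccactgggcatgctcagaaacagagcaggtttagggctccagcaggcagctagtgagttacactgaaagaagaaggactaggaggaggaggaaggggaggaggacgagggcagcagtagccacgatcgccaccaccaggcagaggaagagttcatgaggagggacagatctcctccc
Chrm4 promoter: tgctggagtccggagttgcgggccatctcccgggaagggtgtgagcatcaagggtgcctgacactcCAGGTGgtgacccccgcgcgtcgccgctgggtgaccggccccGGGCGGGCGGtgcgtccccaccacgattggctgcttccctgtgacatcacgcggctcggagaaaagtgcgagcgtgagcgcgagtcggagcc

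The Adra2a window held 1 GC box match, the Chrm4 window held 2 overlapping GC box matches and 1 E-box match, and the Chrm3 window held none of the letters searched. Over 32851 RefSeq promoters, 31.0% of 200-base windows held GGGCGG and 58.2% held CANNTG. G and C made up 67%, 59.5% and 69.5% of the Adra2a, Chrm3 and Chrm4 windows, against a median of 53% over the RefSeq promoters.

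Next are the centres, 200 bases each on the plus strand of mm9, of the distal peak with the largest change on the scale of log2(normalized read count + 1) for each receptor gene that had a called distal peak. They are shown because they carry the line difference away from start sites. The windows are chr19:54181891-54182090 for Adra2a, chr13:10562736-10562935 for Chrm3, chr14:67298814-67299013 for Adra1a, chr11:43702891-43703090 for Adra1b and chr19:56726751-56726950 for Adrb1, with capitals as above.
Adra2a distal peak: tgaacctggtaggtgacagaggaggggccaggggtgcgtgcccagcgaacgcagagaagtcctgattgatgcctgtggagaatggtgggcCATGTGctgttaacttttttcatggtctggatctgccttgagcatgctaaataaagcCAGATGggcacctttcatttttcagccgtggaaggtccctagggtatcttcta
Chrm3 distal peak: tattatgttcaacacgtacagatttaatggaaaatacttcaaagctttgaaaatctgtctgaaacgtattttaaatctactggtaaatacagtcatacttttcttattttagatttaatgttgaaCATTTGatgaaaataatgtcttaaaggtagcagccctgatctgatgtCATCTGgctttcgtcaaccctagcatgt
Adra1a distal peak: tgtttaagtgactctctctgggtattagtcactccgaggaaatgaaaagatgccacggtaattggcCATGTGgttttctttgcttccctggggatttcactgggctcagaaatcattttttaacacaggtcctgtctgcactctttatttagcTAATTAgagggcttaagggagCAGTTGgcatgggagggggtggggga
Adra1b distal peak: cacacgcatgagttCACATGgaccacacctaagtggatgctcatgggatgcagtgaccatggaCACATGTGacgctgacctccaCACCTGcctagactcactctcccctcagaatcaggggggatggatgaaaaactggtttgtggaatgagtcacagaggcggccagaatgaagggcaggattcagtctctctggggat
Adrb1 distal peak: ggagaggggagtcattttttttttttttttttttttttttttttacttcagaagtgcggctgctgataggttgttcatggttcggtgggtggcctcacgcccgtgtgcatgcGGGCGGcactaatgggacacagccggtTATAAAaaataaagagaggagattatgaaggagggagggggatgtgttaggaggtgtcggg

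The Adra1b window held 4 E-box matches, of which 2 overlap, and the Adra1a window held 2 E-box matches and 1 homeobox match. The Adra2a and Chrm3 windows held 2 E-box matches each, and the Adrb1 window held 1 GC box and 1 TATA box match. Of all 57 receptor peaks, 47 had CANNTG within the central 200 bases (82.5%, against 69.2% of all peaks), 7 had CAGCTG (12.3% against 17.2%), 5 had TAATTA (8.77% against 6.93%), 5 had TGTTTAC (8.77% against 6.31%), 6 had GGGCGG (10.5% against 15.5%) and 9 had TATAAA (15.8% against 9.91%). None had TGACGTCA or the RE1 element in that window, which 0.761% and 0.0569% of all peaks hold. A match says only that these letters are present.

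The libraries bore out their labels, with exceptions. All 7 beta cell markers, among them Ins1, Ins2 and Pdx1, were called higher in βTC6, and of the alpha cell markers Gcg, Irx1 and Irx2 (under both of its identifiers) were called higher in αTC1, whereas Ttr was not called. Of the 7 beta markers, 6 reached the testing minimum through βTC6 alone, which favours a difference, and Nkx6-1 reached it in both lines. Of the 6 alpha marker entries called, 3 reached it through αTC1 alone and 3 in both lines. βTC6 also carried the delta cell hormone Sst (summed delta marker FPKM 207 to 325, against 0.06 to 0.13 in αTC1, with Hhex near 0), the PP cell hormone Ppy (3.7 to 50.8 against 0.09 to 0.1) and Gcg at a mean FPKM of 229. αTC1 carried the duct marker Sox9 (summed duct FPKM 4.05 to 4.42 against 0, with Krt19 at or near 0) and the acinar marker Cela1 (FPKM 3.7, 3.58 and 3.66 against 0.14, 0.82 and 0.26, with Cpa1, Prss2 and Ptf1a at or near 0). It also carried the fibroblast marker Col1a2 (FPKM 1.26, 1.35 and 2.12 against 0.23, 0.09 and 0.08). Of the other fibroblast markers, Col1a1 was alike in both lines (mean FPKM 0.14 and 0.13) and Col3a1 was at 0. The immune marker Cd68 passed the FDR as higher in βTC6 (log2 fold change 1.09, edgeR adjusted p = 0.00136; summed immune FPKM 2.03 to 2.19 against 0.92 to 1.2), with Ptprc, which defines blood cells, at or near 0. Endothelial markers summed to FPKM 0.18 to 0.28 in βTC6 and 0.04 to 0.1 in αTC1, with Cdh5 at or near 0, and the epsilon marker Ghrl was at 0.08 to 0.65 and 0.16 to 0.88. The neuronal vesicle gene Snap25, also an islet gene, did not pass the test. The part of these genes in the receptor differences was not tested. RNA-seq totals were 21795367 to 25876765 expected counts and pure ATAC-seq libraries held 4397851 to 10374903 reads in peaks. Libraries of a line fell into closer and more distant sets. By chi-square per degree of freedom, which counting noise alone would put near 1, αTC1 ATAC-seq replicates 1 to 3 differed by 2.05 to 2.16 among themselves and by 10.0 to 11.3 from replicates 4 and 5, which differed from each other by 4.72. βTC6 ATAC-seq replicates 1 to 3 differed by 2.26 to 2.55, and all pairs with replicate 4 or 5 by 4.47 to 8.52. In RNA-seq αTC1 replicates 1 and 2 differed by 2.1 and stood 30.5 and 32.4 from replicate 3, whereas βTC6 pairs differed by 19.1 to 43.4. No pair fell within counting noise, so each library was counted, but whether the libraries of a set are independent was not tested, and n may overstate the replication. Adra2a and Chrm3 were also called without αTC1 replicate 1, 2 or 3.

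Adra2a, the alpha-2A receptor, was the most abundant of the 9 in βTC6. Its FPKM (fragments scaled to transcript length and to library size) was 0.02, 0.06 and 0 in αTC1 replicates 1 to 3 and 27.3, 32 and 37.7 in βTC6 replicates 1 to 3. These values rest on 2, 6 and 0 counts in αTC1 and 2705, 3190 and 3556 counts in βTC6, so the groups lie far apart. The log2 fold change, βTC6 over αTC1 here and throughout, was 10.10 (SE 0.32, edgeR adjusted p = 1.79e-08). Summed counts scaled by library totals gave a ratio of 1103 (95% exact interval 559.6 to 2556, counting error only). In bulk libraries like these, fewer cells with a transcript and less RNA per cell cannot be told apart. The fitted value rests on very few αTC1 counts: it was 11.40 without αTC1 replicate 2, 9.51 without αTC1 replicate 3, and 5.01 with limma on log2(FPKM + 1).

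Chrm3, the M3 receptor, followed the same direction at a lower level. FPKM was 0.05, 0 and 0.02 in the αTC1 libraries (2, 0 and 1 counts) and 9.99, 6.05 and 8.34 in the βTC6 libraries (501, 306 and 399 counts). Every βTC6 library stood above every αTC1 library, with a log2 fold change of 8.44 (SE 0.43, edgeR adjusted p = 2.85e-07). The ratio of scaled summed counts was 375 (95% exact interval 128 to 1823, counting error only). Without αTC1 replicate 1 the fitted value was 9.34, and limma on log2(FPKM + 1) gave 3.13. GENCODE vM1 draws Chrm3 as 1 exon of 1949 bases that lies 482 kb from the RefSeq start site, so its FPKM covers little beyond the coding exon. Counts per unit of FPKM were 1.97 times as large for Adra2a, annotated with 3801 exonic bases, as for Chrm3.

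Chrm4, the Gi/o-coupled M4 receptor, was the only receptor of the 9 with an FPKM of at least 1 in all libraries of both lines. Its FPKM was 1.11, 1.09 and 1.09 in αTC1 and 3.97, 2.88 and 3.01 in βTC6, from 57, 68 and 69 counts and 285, 208 and 206 counts. The groups do not overlap. With a log2 fold change of 1.81 (SE 0.19, edgeR adjusted p = 2.08e-05), Chrm4 passed the false discovery rate (FDR) of 5% but stayed inside the fold threshold of 2 on the log2 scale.

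Adrb1, the Gs-coupled beta-1 receptor, was the only member whose transcript counts leaned to αTC1 with more than 3 counts in any library. It had 5, 9 and 9 counts in αTC1 (FPKM 0.09, 0.15 and 0.14) and 0 in each βTC6 library. Against a floor of 3 counts per library the αTC1 mean of 7.67 counts was at least 2.56-fold higher. Its level was under the minimum for the test. When the 19570 genes with any count were tested, edgeR gave Adrb1 an adjusted p of 0.00129 and a log2 fold change of -6.00, a value that depends on the prior count and is no bound, and 5.21% of those genes were called higher in αTC1.

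The other receptors were at the edge of detection in both lines. Adra1a, an alpha-1 receptor, had 0 counts in αTC1 and 2, 0 and 1 in βTC6. Adra1b, the other alpha-1 receptor of the group, had 1, 2 and 2 in αTC1 and 0, 1 and 0 in βTC6. Chrm1, the M1 receptor, had 2, 2 and 1 and 0, 0 and 2. Adra2c, the alpha-2C receptor, and Chrm5, the M5 receptor, had 0 counts in all 6 libraries, which allows a share of up to 1.16e-05% to 1.38e-05% of the counts of a library. No line difference was detectable for these 5 at this depth. Of other receptors of these families, Adra1d, Adra2b, Adrb3 and Chrm2 were under the testing minimum. The highest of their mean FPKM values was 0.0733, for Adra2b in βTC6.

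**Figure D1:**
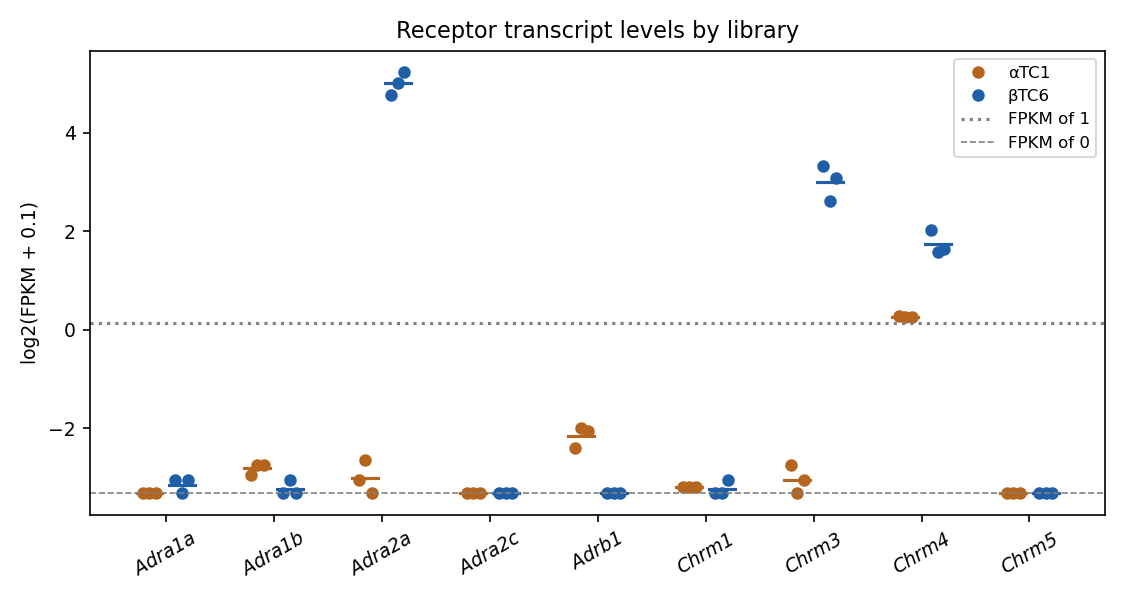
Points give log2(FPKM + 0.1) of each receptor gene (x axis) in 3 αTC1 and 3 βTC6 RNA-seq libraries, and bars give the mean of those points. Adra2a and Chrm3 sit far above an FPKM of 1 in βTC6 alone, Chrm4 sits just above it in αTC1 and higher in βTC6, and the other 6 genes lie at FPKM 0.15 or less, toward the bottom of the axis.

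Of the 3 genes that reached the minimum of FPKM 1 in all replicates of a line, Adra2a and Chrm3 were called higher in βTC6 and none in αTC1. Both reached it through βTC6 alone, and this filter favours a difference in such genes. Over the 12195 genes tested, 10.2% were called higher in βTC6 and 4.08% in αTC1, and on the FDR alone, the rule Chrm4 passed, the shares were 38.7% and 36.0%. In βTC6 the order of levels by FPKM was Adra2a, Chrm3, Chrm4, with no overlap between neighbours, and then the 6 others, which do not differ beyond their spread. In αTC1 Chrm4 stood first, Adrb1 next and Adra1b after it, again without overlap, whereas Adra1b, Adra2a and Chrm3 overlap. By coupling, the Gi/o receptors summed to an FPKM of 1.12 ± 0.0306 in αTC1 and 35.6 ± 4.73 in βTC6 (SD, n = 3), the Gq receptors to 0.0767 ± 0.0153 and 8.15 ± 1.98, and the Gs receptor Adrb1 to 0.127 ± 0.0321 and 0.

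The genes nearest to Adra2a in pattern, by Euclidean distance on log2(FPKM + 1) over the 6 libraries among 24438 genes, were Tmem215 (distance 0.399) and Bves (0.528). For Chrm3 they were Arhgef16 (0.26) and Hpgds (0.262), and for Chrm4 Pik3c2g (0.214) and Gm3512 (0.251).

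Accessibility at the Adra2a and Chrm3 start sites differed in the same direction as the transcripts, and at the Chrm4 start site no difference was called. These 3 peaks were the only receptor peaks within 2 kb of a start site. Values are the normalized read counts of the deposited table, which holds no 0. In recovered reads 1.26% to 4.37% of the peaks of a library were at 1 read and 0.125% to 1.07% at 2, so a value of 1 read may stand for 0 or 1. Of the 57 receptor peaks, 7 had a pure library at that value, 3 of them called: the Adra1a peak at 44.8 kb and the Chrm3 peaks at 48.9 kb downstream and 85.0 kb upstream.

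At the Adra2a start site (chr19:54119034-54120127, centred 91 bases upstream) the normalized read count was 4.62, 6.32, 7.36, 8.73 and 7.08 in αTC1 replicates 1 to 5 and 46.4, 36.9, 45.8, 46.1 and 43.8 in βTC6 replicates 1 to 5. The means were 6.82 ± 1.51 and 43.8 ± 3.99 (SD, n = 5), without overlap, a 6.42-fold difference with a log2 fold change of 2.54 (SE 0.14, limma adjusted p = 3.56e-12). Log2 fold changes of peaks are on the scale of log2(normalized read count + 1), which understates changes of low peaks.

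The Chrm3 start-site peak (chr13:10358584-10360617, centred 448 bases downstream) measured 4.2, 3.23, 3.31, 2.59 and 2.89 in αTC1 and 52.5, 63.6, 56.6, 59.4 and 67.7 in βTC6. Its means of 3.24 ± 0.606 and 60.0 ± 5.91 differed 18.5-fold, with a log2 fold change of 3.85 (SE 0.13, limma adjusted p = 7.72e-15). All 5 βTC6 libraries were above 50 and all 5 αTC1 libraries under 5.

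At the Chrm4 start site (chr2:91761767-91762655, centred 135 bases upstream) the counts were 21.4, 18, 20.3, 20.1 and 13.1 in αTC1 and 19.5, 15.6, 16.6, 19.3 and 10.4 in βTC6. The lines overlapped, and the log2 fold change of -0.19 (SE 0.16, limma adjusted p = 0.282) did not pass. After median scaling it was -0.49 (limma adjusted p = 0.0109), past the FDR with lower counts in βTC6 and so opposite to the transcript, and after quantile normalization it was -0.19 (limma adjusted p = 0.360). Replicate 5 was the lowest library of both lines here.

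**Figure D2:**
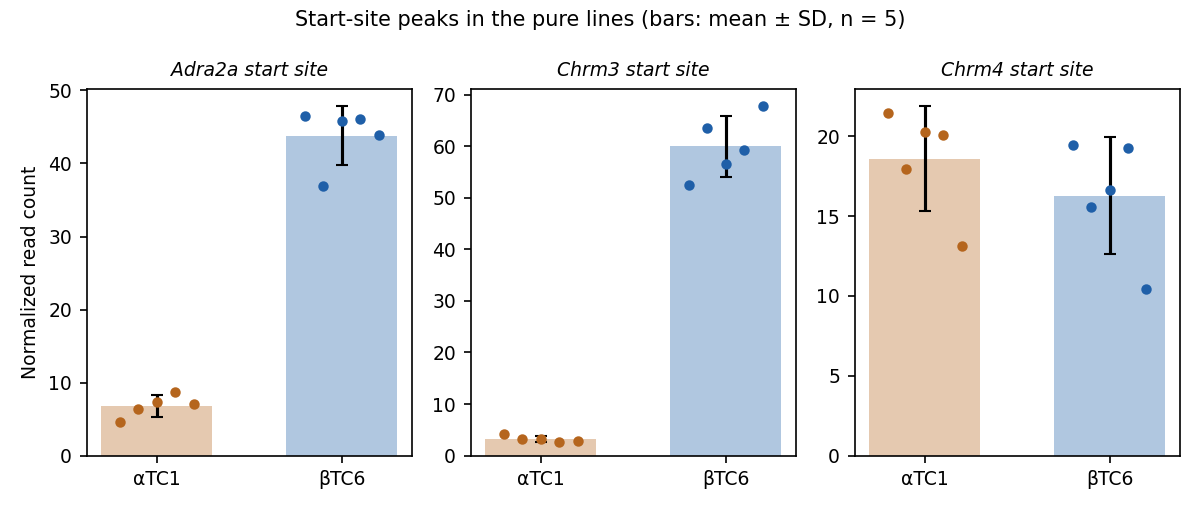
Bars give the mean normalized read count (y axis) of the peak at each start site in αTC1 and βTC6, error bars the SD over 5 libraries, and points the libraries. Adra2a and Chrm3 are separated between the lines, with means of 6.82 against 43.8 and 3.24 against 60.0, while Chrm4 overlaps at 18.6 against 16.3.

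Beyond start sites, the peaks of a gene mostly leaned to a single line. Of the 57 receptor peaks, 14 were called higher in βTC6 (24.6%, where 12.9% of all 65053 peaks were) and 6 higher in αTC1 (10.5%, where 5.38% were). On the FDR alone, 40 were higher in βTC6 and 12 in αTC1, where 39.9% and 38.1% of all peaks were, and 5 did not pass. The median log2 fold change was 1.04 over the 57 peaks and 0.00 over all peaks. Peaks of a gene share a locus and are no independent replicates, and 39 of the 57 belong to Adra2a and Chrm3. Scaling mattered for the balance over all peaks: 8409 were called higher in βTC6 and 3502 in αTC1, but 5655 and 5126 after quantile normalization and 5690 and 5241 after median scaling, which moved the median of all peaks to -0.30. After quantile normalization 11 and 6 receptor peaks were called, where 8.69% and 7.88% of all peaks were, and after median scaling 11 and 7, where 8.75% and 8.06% were. With edgeR on the recovered reads 23 and 7 were called, where 21.2% and 8.82% of all peaks were, and with a pseudocount of 0.5 the counts were 21 and 6, where 17.3% and 7.11% were. With a pseudocount of 5 in place of 1, which shrinks the folds of low peaks, 5 were called higher in βTC6 and 2 in αTC1 (2.56% and 1.26% of all peaks were), and the start-site peaks of Chrm3 and Adra2a were both among the 5. By place, 30 peaks lay over 100 kb from the start site, 8 had their centre in an intron, 2 in an exon and 47 outside annotated protein-coding genes. The 47 include the 7 Chrm3 peaks between its start site and coding exon, because GENCODE vM1 draws the gene as that exon alone.

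**Figure D3:**
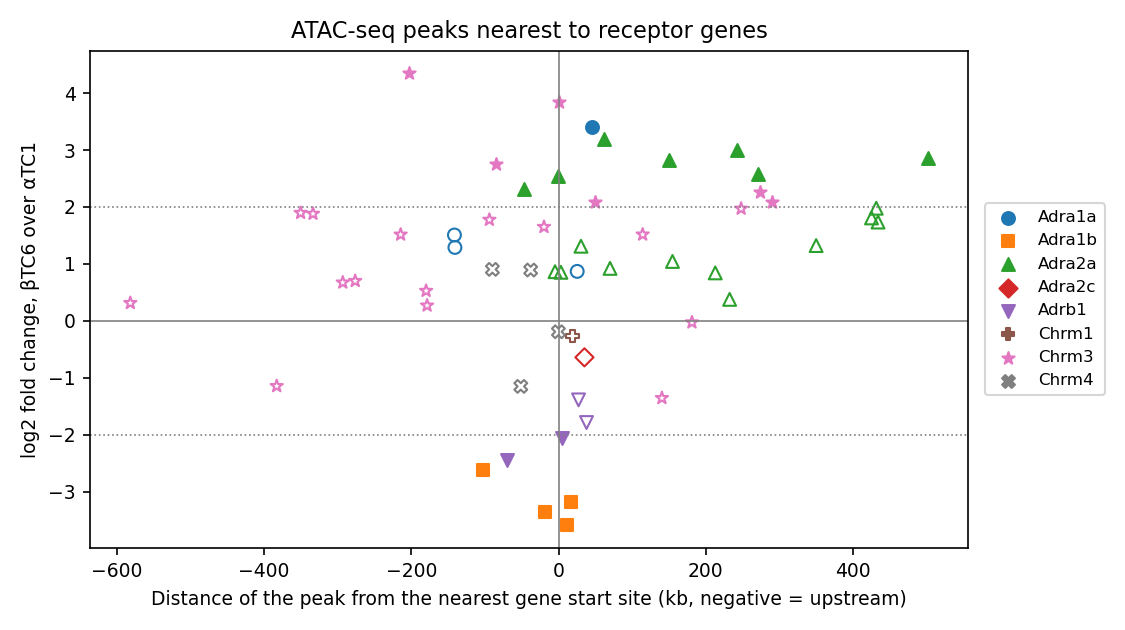
Each symbol is a receptor peak, with the distance from the start site in kb on the x axis and the log2 fold change, βTC6 over αTC1, on the y axis; filled symbols were called and open ones were not, in the shape and colour of the gene. All 18 Adra2a peaks lie above 0 and all Adra1b and Adrb1 peaks below it, whereas Chrm3 and Chrm4 have peaks on both sides.

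All 18 Adra2a peaks passed the FDR with higher counts in βTC6, and 7 were called. Log2 fold changes ran from 0.38 to 3.19. After quantile normalization all 18 still had positive values and 16 passed the FDR, and after median scaling 17 did. The median over all peaks of chromosome 19 was 0.10. Of the 95 peaks of other genes within 1000 kb, 18 were called higher in βTC6 and 3 in αTC1, with a median of 0.16.

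The Adra2a peak with the largest change on this scale lay 62.3 kb downstream (chr19:54181539-54182442, outside protein-coding genes), with 5.74, 2.95, 6.16, 6.28 and 6.5 in αTC1 and 48.7, 53.9, 51.4, 59.6 and 76 in βTC6. Its log2 fold change was 3.19 (SE 0.17, limma adjusted p = 1.85e-12). The farthest called peak, 501.8 kb downstream, had 3.36, 2.39, 3.46, 4.78 and 5.78 in αTC1 and 34.1, 39.2, 30.3, 37.7 and 30.1 in βTC6 (log2 fold change 2.87). By the ratio of mean normalized read counts the order differs, with 10.5-fold at 62.3 kb and 17.8-fold at the low peak 242.2 kb downstream. No αTC1 library reached the lowest βTC6 library at either.

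Lower in count were the peaks at 150.5, 242.2 and 270.6 kb downstream. At 150.5 kb αTC1 had 2.24, 1.4, 1.5, 2.05 and 0.722 and βTC6 15.1, 14.2, 14.1, 21.4 and 21 (log2 fold change 2.82). At 242.2 kb the values were 0.56, 0.281, 1.05, 0.273 and 1.3 and 11.5, 12.1, 12.2, 10.1 and 15.7 (3 on the log2 scale). At 270.6 kb they were 0.7, 1.55, 0.751, 1.36 and 1.59 and 9.09, 15.6, 11.1, 10.8 and 13.8 (2.58). In each, all αTC1 libraries stayed under 2.5 and all βTC6 libraries above 9. The called peak 46.4 kb upstream lies in an intron of Shoc2 and had 0.56, 0.421, 1.05, 0.682 and 0.433 in αTC1 and 7.1, 6.56, 6.89, 6.14 and 8.54 in βTC6, with a log2 fold change of 2.31, or 1.89 and no longer called after quantile normalization. The peak centred in the single Adra2a exon, 3.27 kb past the start, was open in both lines, at 24.4 ± 2.49 in αTC1 and 44.6 ± 1.31 in βTC6 (SD, n = 5), with a log2 fold change of 0.85. The other 10 Adra2a peaks ran from 0.38 to 1.98 in log2 fold change. Among them the low peak 425.0 kb downstream differed 10.9-fold by the ratio of means, 0.340 in αTC1 and 3.71 in βTC6, with 2 αTC1 libraries at 1 read.

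Chrm3 had 21 peaks, 13 upstream of the start site, 1 at it and 7 between it and the annotated coding exon. 16 passed the FDR with higher counts in βTC6, 2 with higher counts in αTC1 and 3 did not pass. After quantile normalization 14 and 2 passed, and after median scaling 13 and 3. The 6 called peaks were all higher in βTC6, and the median over chromosome 13 was -0.03. Of the 52 peaks of other genes within 1000 kb, 4 were called higher in βTC6 and 3 in αTC1, with a median of -0.34.

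The largest log2(normalized read count + 1) change of any receptor peak lay 202.8 kb upstream of Chrm3 (chr13:10562391-10563279), with 1.26, 1.55, 0.451, 0.955 and 1.88 in αTC1 and 39.1, 42, 37, 35.8 and 67.3 in βTC6, a log2 fold change of 4.35 (SE 0.21, limma adjusted p = 5.82e-13). βTC6 replicate 5 was high, and without it the peak stayed called. At 85.0 kb upstream the values were 0.56, 1.55, 0.15, 1.5 and 0.144 in αTC1 and 11.5, 12.1, 9.32, 10.6 and 8.36 in βTC6 (log2 fold change 2.75).

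On the downstream side, the peak 289.5 kb from the start measured 2.52, 3.93, 4.36, 4.5 and 4.33 in αTC1 and 18, 17, 16.2, 23.5 and 25.3 in βTC6. Its log2 fold change of 2.09 is near the threshold and was 1.97 without αTC1 replicate 1. The peak at 274.3 kb had 0.7, 1.55, 1.05, 2.05 and 1.3 and 8.38, 7.79, 9.73, 13.1 and 12 (2.27 on the log2 scale), and the peak at 48.9 kb had 0.14, 0.14, 0.751, 0.546 and 0.578 and 4.26, 4.51, 5.27, 5.56 and 5.63 (2.1). These 3 fell under the fold threshold after quantile normalization or median scaling, with values of 1.68 to 1.97. Peaks higher in αTC1 stood at 140.4 kb downstream (12.6 ± 2.35 against 4.53 ± 1.92, SD, n = 5, log2 fold change -1.36) and at 382.7 kb upstream (3.21 ± 1.2 against 0.867 ± 0.401, -1.15), and neither passed the fold threshold. The other 13 Chrm3 peaks ran from -0.03 to 1.97.

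All 4 Adra1b peaks were called higher in αTC1, although its transcript was at the edge of detection in both lines. Within the gene's introns, the peak 11.7 kb past the start (chr11:43702646-43703335) had 21.8, 22.5, 24.2, 22.5 and 29.5 in αTC1 and 1.28, 1.44, 1.49, 1.14 and 0.282 in βTC6, with a log2 fold change of -3.59 (SE 0.21, limma adjusted p = 8.63e-12). The intronic peak at 16.6 kb had 14.8, 18.5, 19.4, 17.3 and 18.6 and 0.994, 1.44, 1.62, 1.28 and 0.282 (-3.18 on the log2 scale). Every αTC1 library was over 14 and every βTC6 library under 2 at these intronic peaks. Upstream, the peak at 18.6 kb had 28, 27, 30.2, 32.3 and 26.4 in αTC1 and 1.56, 1.44, 3.38, 3.14 and 0.751 in βTC6 (-3.37), and that at 102 kb had 13.9, 10.8, 7.36, 12.6 and 18.1 and 1.28, 1.64, 1.62, 0.856 and 0.469 (-2.62). Of the 48 peaks of other genes within 1000 kb of these, 10 were called higher in βTC6 and 0 in αTC1, with a median of 0.96.

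The 4 Adrb1 peaks also leaned to αTC1, in the direction of its few counts, and 2 were called. At 70.0 kb upstream (chr19:56726442-56727258) αTC1 had 19.5, 16.9, 12.5, 24.3 and 26.6 and βTC6 1.42, 2.46, 3.11, 4.99 and 2.54, a log2 fold change of -2.44 (SE 0.24, limma adjusted p = 1.14e-08). At 5.34 kb downstream the values were 7.7, 7.87, 8.57, 7.23 and 8.67 and 1.56, 1.44, 1.49, 1.14 and 0.376 (-2.07 on the log2 scale, but -1.90 and no longer called without βTC6 replicate 5). Neither peak showed overlap between the lines. The most open Adrb1 peak, 38 kb downstream, averaged 61.8 ± 6.63 in αTC1 and 17.4 ± 3.78 in βTC6 (SD, n = 5, log2 fold change -1.79), and that at 27.2 kb 3.96 ± 1.58 and 0.812 ± 0.142 (-1.39). Over all peaks of chromosome 19, 13.8% were called higher in βTC6 and 3.45% in αTC1. Of the 49 peaks of other genes within 1000 kb of the Adrb1 peaks, 7 were called higher in βTC6 and 1 in αTC1, with a median of 0.02.

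Adra1a had 4 peaks, all higher in βTC6 on the FDR (3 after quantile normalization), on chromosome 14, where the median over all peaks was 1.54 and 35.5% were called higher in βTC6. The called peak, in an Adra1a intron 44.8 kb past the start (chr14:67298432-67299394), had 0.14, 0.702, 0.15, 0.136 and 0.433 in αTC1 and 11.8, 15, 9.32, 12.1 and 16.3 in βTC6, with a log2 fold change of 3.4 (SE 0.22, limma adjusted p = 3.03e-11). In recovered reads, 3 of the 5 αTC1 libraries lay at the lowest value of the table, 1 read, which may stand for 0, and the βTC6 libraries held a median of 83. The other 3 peaks, at 0.87 to 1.51 on the log2 scale, were at or under that chromosome's median, but above the median of 0.79 of the 41 peaks of other genes within 1000 kb, of which 3 were called higher in βTC6.

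For the remaining genes no peak was called. Of the 4 Chrm4 peaks, the 3 distal ones have their centres in introns of the neighbouring gene Ambra1, and 2 were higher in βTC6 (1 after quantile normalization) and 1 in αTC1 on the FDR. The latter, 51.2 kb upstream, averaged 28.2 ± 3.25 in αTC1 and 12.2 ± 1.88 in βTC6 (SD, n = 5, log2 fold change -1.15). Of the 85 peaks of other genes within 1000 kb of the Chrm4 peaks, 4 were called higher in βTC6 and 11 in αTC1, with a median of -0.88. The only Adra2c peak, 35.2 kb from the start, averaged 8.14 ± 2.05 and 4.84 ± 1.13 (log2 fold change -0.64 (SE 0.20, limma adjusted p = 0.00764)). The Chrm1 peak, in an exon of Chrm1, averaged 3.94 ± 0.706 and 3.14 ± 0.863 with overlap between the lines (log2 fold change -0.27 (SE 0.22, limma adjusted p = 0.265)). It passed the FDR as lower in βTC6 after quantile normalization (-0.76, limma adjusted p = 0.0033) and after median scaling (-0.57, limma adjusted p = 0.0219). Chrm5 had no peak.

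The mixtures also covered the 20 called peaks in libraries that the calls did not use. All 20 changed with the share of αTC1 cells in the direction of the difference between the pure lines, with an absolute Pearson's r of 0.71 to 0.99 (median 0.93) and a largest adjusted p of 0.0373 over the 20 exact permutation tests, each two-sided. By Spearman's rho 19 of the 20 passed. A mixture holds cells of both lines by construction. The share of all called peaks that change in this way was not computed, so the count shows nothing particular to receptor peaks.

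At the Adra2a start site the normalized read count over 10% to 90% αTC1 cells was 41, 34.7, 32.9, 19.9, 23.5, 14.1, 9.54, 9.38 and 6.5. Pearson's r was -0.97 (exact permutation p = 3.86e-05, adjusted p = 0.000154) and Spearman's rho -0.98 (exact permutation p = 4.96e-05, adjusted p = 0.000248). The Adra2a peak 62.3 kb downstream fell at every step, through 62.9, 54, 44, 40.8, 33.5, 26.1, 19.2, 17.2 and 10.8. Pearson's r was -0.99 (exact permutation p = 5.51e-06, adjusted p = 5.51e-05) and Spearman's rho -1 (exact permutation p = 5.51e-06, adjusted p = 5.51e-05), and 5.51e-06 is the smallest p that 9 mixtures allow.

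The Chrm3 start site had 51.6, 37.9, 30.9, 39.9, 27.6, 11.5, 12.7, 12 and 6.5 in the same order. Pearson's r was -0.94 (exact permutation p = 0.000353, adjusted p = 0.000772) and Spearman's rho -0.9 (exact permutation p = 0.00203, adjusted p = 0.00312). For the peak 202.8 kb upstream of Chrm3 the values were 51.5, 50.4, 31.6, 34.2, 27, 18.9, 14.1, 8.33 and 7.11, with r of -0.98. Both were low where αTC1 cells were many, though not at every step.

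Peaks higher in αTC1 rose. The intronic Adra1b peak at 11.7 kb had 3.9, 5.07, 12.4, 14.5, 9.35, 19.1, 22.3, 21.7 and 28.7. Pearson's r was 0.94 (exact permutation p = 0.000309, adjusted p = 0.000772) and Spearman's rho 0.93 (exact permutation p = 0.00075, adjusted p = 0.0015). The Adrb1 peak 70.0 kb upstream had 5.92, 7.26, 11.4, 11.3, 18.6, 13.1, 22.9, 23.3 and 23.2, with r of 0.94, and the intronic Adra1a peak, higher in βTC6, had 11, 18.1, 11.4, 11.1, 7.74, 4.66, 5.09, 4.34 and 1.83, with r of -0.88.

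Leaving out the 10% and 90% mixtures, the 2 farthest from the median share, 16 of the 20 passed. r was then -0.95 at the Adra2a start site, -0.99 62.3 kb downstream of it, -0.88 at the Chrm3 start site, -0.96 202.8 kb upstream of it, 0.88 at the Adra1b peak, 0.90 at the Adrb1 peak and -0.93 at the Adra1a peak. The 4 that no longer passed were the Adra1b peak 102 kb upstream (0.73) and the Chrm3 peaks at 289.5 kb (-0.63) and 48.9 kb downstream (-0.63) and 85.0 kb upstream (-0.55). Their r kept its sign but was closer to 0, and with 7 mixtures fewer points enter the test.

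**Figure D4:**
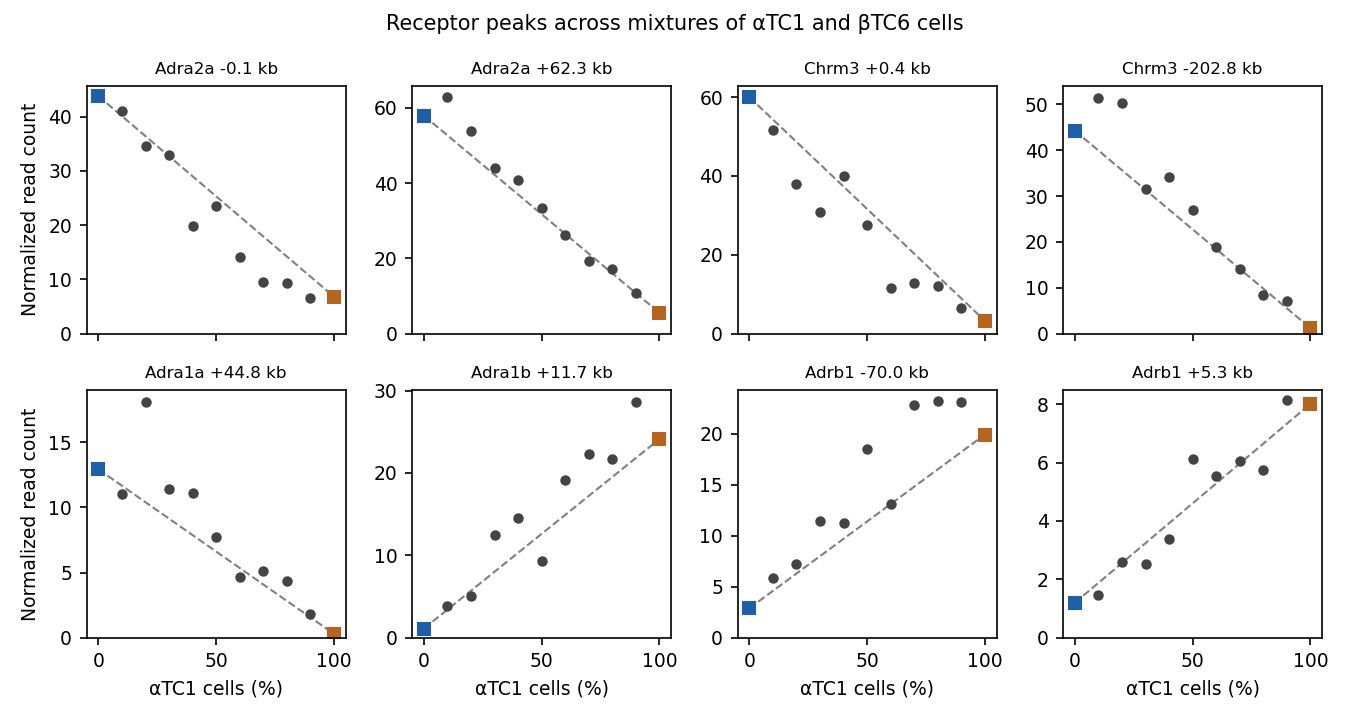
Black points give the normalized read count (y axis) of 8 called receptor peaks in 9 mixtures by their share of αTC1 cells (x axis, %), squares the means of the pure lines, and the dashed line joins those means. Adra2a, Chrm3 and Adra1a peaks fall and Adra1b and Adrb1 peaks rise with the share of αTC1 cells.

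Downstream of the receptors, of 11 tested Gq partners, phospholipase C enzymes and their effectors (15 listed), 4 were called higher in βTC6 and 0 in αTC1, and on the FDR alone 9 were higher in βTC6 and 2 in αTC1, with a median log2 fold change of 0.75, where the median over all genes was 0.01. Over all tested genes 10.2% were called higher in βTC6 and 4.08% in αTC1, and 38.7% and 36.0% passed the FDR alone, shares that also apply to the lists that follow. Of the 4, Prkcb, Prkcd and Itpr3 reached the testing minimum through βTC6 alone, which favours a difference, and Prkca reached it in both lines. The 4 were 3 protein kinase C genes and the calcium-release channel Itpr3. Prkcb had an FPKM of 0.00667 ± 0.00577 in αTC1 and 7.98 ± 1.51 in βTC6 (SD, n = 3), with a log2 fold change of 9.43 (SE 0.36, edgeR adjusted p = 5.14e-08). Prkcd had 0.117 ± 0.0808 in αTC1 and 9.57 ± 0.361 in βTC6 (6.73 (SE 0.22, edgeR adjusted p = 2.01e-08)), Prkca 2.2 ± 0.17 in αTC1 and 15.9 ± 2.78 in βTC6 (3.51 (SE 0.12, edgeR adjusted p = 3.55e-08)) and Itpr3 0.153 ± 0.0252 in αTC1 and 2.06 ± 0.884 in βTC6 (3.80 (SE 0.33, edgeR adjusted p = 6.56e-06)).

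Of 11 tested Gi/o and Gs subunits and adenylyl cyclases (16 listed), 5 were called higher in βTC6 and 0 in αTC1, with a median of 0.79. On the FDR alone 8 were higher in βTC6, 1 in αTC1 and 2 did not pass. Gnai1, Adcy1, Adcy2 and Adcy3 entered the test through βTC6 alone, and of the called genes Adcy9 alone reached the minimum in both lines. The called genes were the inhibitory subunit Gnai1, at 0.813 ± 0.118 in αTC1 and 8.61 ± 1.33 in βTC6 FPKM (3.45 (SE 0.17, edgeR adjusted p = 2.13e-07)), and 4 cyclases, which make cyclic AMP. Adcy1, a calcium-stimulated cyclase, had 0.0133 ± 0.0115 in αTC1 and 13.1 ± 2.09 in βTC6 (11.17 (SE 0.25, edgeR adjusted p = 3.25e-09)). Adcy2, Adcy3 and Adcy9 had log2 fold changes of 4.78, 2.65 and 2.61.

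Of 7 tested receptor kinases and arrestins (8 listed), which switch these receptors off, none was called; 3 were higher in βTC6 and 2 in αTC1 on the FDR alone, and the median was -0.10. Of 3 tested GIRK channels (4 listed), the potassium channels that Gi/o receptors open, Kcnj6 was called higher in βTC6 and Kcnj3 and Kcnj9 in αTC1. All 3 reached the minimum only in the line where they are high, which favours a difference in that direction. Kcnj6 had an FPKM of 0.08 ± 0.052 in αTC1 and 3.93 ± 0.951 in βTC6 (5.73 (SE 0.38, edgeR adjusted p = 1.25e-06)). Kcnj3 had 1.88 ± 0.217 in αTC1 and 0.247 ± 0.17 in βTC6 (-2.99 (SE 0.35, edgeR adjusted p = 5.28e-05)) and Kcnj9 2.46 ± 0.48 in αTC1 and 0.00333 ± 0.00577 in βTC6 (-8.76 (SE 0.48, edgeR adjusted p = 4.3e-07)). Of 6 tested genes of transmitter synthesis, storage and removal (15 listed, 14 in the table), 3 were called higher in βTC6 and 0 in αTC1, with a median of 1.46. Th and Maob reached the minimum in both lines and Slc18a1 through βTC6 alone. Th, which makes the catecholamine precursor L-DOPA, had 16.8 ± 7.86 in αTC1 and 97.6 ± 8.19 in βTC6 (2.59 (SE 0.27, edgeR adjusted p = 2.23e-05)), the vesicular monoamine transporter Slc18a1 0.27 ± 0.114 in αTC1 and 4.72 ± 1.07 in βTC6 (4.54 (SE 0.33, edgeR adjusted p = 2.11e-06)) and the monoamine oxidase Maob 3.07 ± 0.577 in αTC1 and 95.2 ± 14.2 in βTC6 (5.01 (SE 0.17, edgeR adjusted p = 3.03e-08)). Dbh, which makes noradrenaline, was under the testing minimum, with 0 counts in each αTC1 library and 46, 21 and 21 in βTC6. Pnmt, which makes adrenaline, had 0 counts in all 6 libraries.

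**Figure D5:**
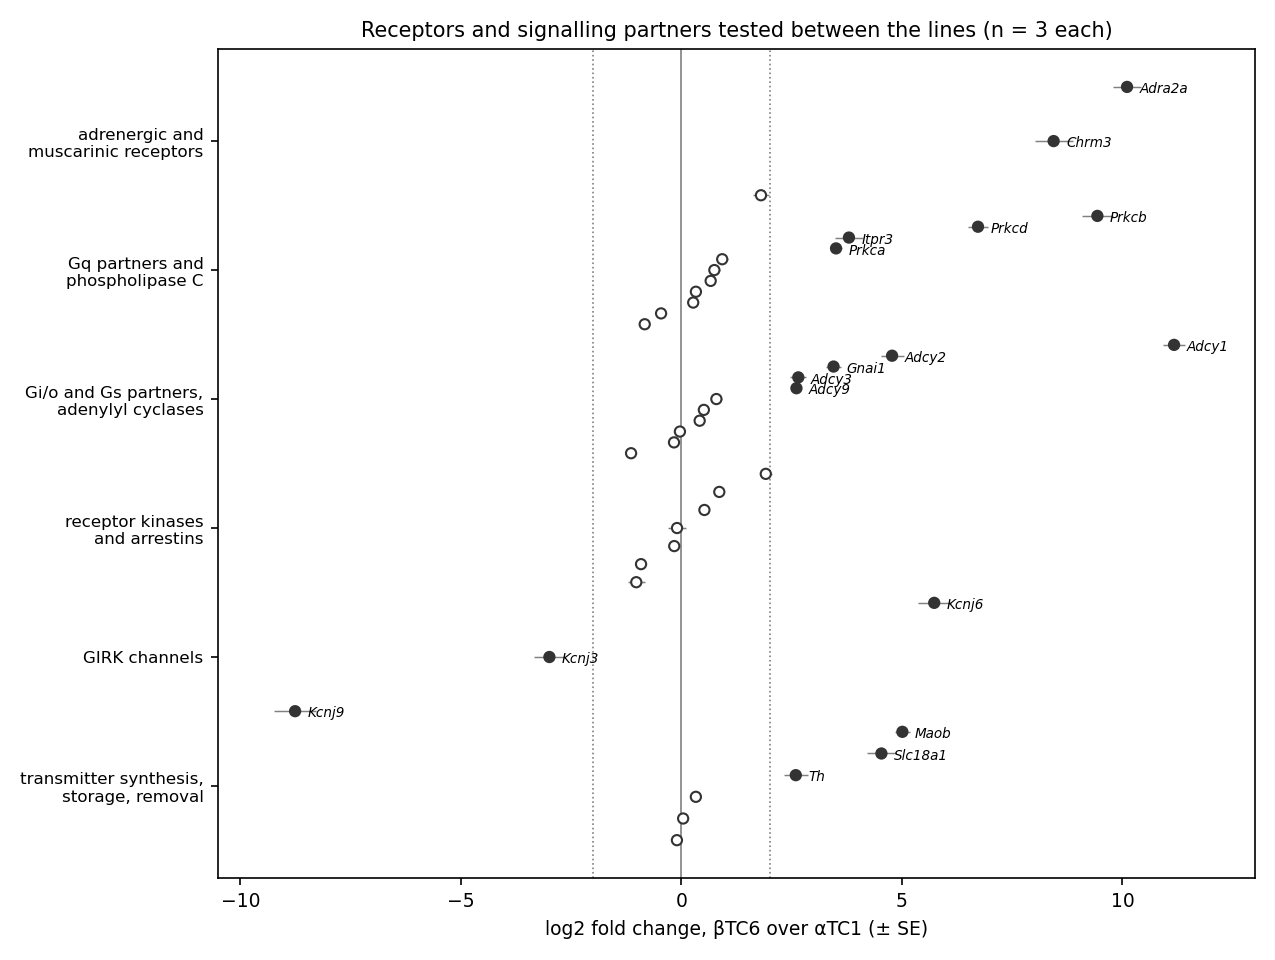
Points give the log2 fold change, βTC6 over αTC1 (x axis, ± SE, 3 libraries of each line), of the tested genes in each list (y axis); filled points are called and named. Called genes lie to the right, except for Kcnj3 and Kcnj9 among the GIRK channels.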

How the data were processed

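ATAC-seq signal was deposited as read counts per consensus peak after TMM scaling, which the authors obtained with Trimmomatic 0.32, BWA 0.7.9a on mm9, Picard 1.95, MACS2 2.1.0 per library and DiffBind 2.2.5, keeping peaks found in at least 2 samples, with nearest genes from HOMER 4.6. Expected counts and FPKM values were deposited by the authors from Trim Galore 0.40, Bowtie2 2.23 and RSEM 1.2.12 on Ensembl transcripts, with a stranded kit. The 2 further columns of the ATAC-seq table hold the authors' own peak classes and were not used; 0 columns of sample values were left over.

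Genes that reached FPKM 1 in every replicate of a line were tested with edgeR 4.0.16 (glmQLFTest, TMM) on expected counts rounded to whole numbers, without the spike-in transcripts. Peaks were tested with limma 3.58.1 (trend) on log2(normalized read count + 1). Called means an adjusted p (Benjamini-Hochberg, over all genes or peaks) within the 5% FDR together with a log2 fold change beyond 2 in either direction. The SE of a gene was derived from its fold change and the F statistic of edgeR. Dividing a library by its lowest value gave whole reads for 100% of values (tolerance 0.01), on a scale whose lowest value, 1, may stand for 0. DESeq2 1.42.0, other scalings, filters and pseudocounts, and leaving out replicates, were alternatives. On simulated data edgeR called 200 of 200 changed genes among 12195 and limma 199 of 200 changed peaks among 65053, both at a log2 change of 3, with 0 false calls. The changed genes and peaks were drawn from well-covered ones, with a change beyond the fold threshold and a single fixed spread between libraries. The simulation therefore does not cover low genes and peaks, or closer and more distant sets of libraries.

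Mixtures were tested by exact permutation in Python 3.11.15 with scipy 1.17.1. The floor of detection was 3 counts, and intervals cover counting error only. Sequences and annotation came from NCBIM37 (mm9) and GENCODE vM1, with promoters of 7 of the 9 genes from RefSeq (GRCm38.p6) matched exactly to mm9. All 9 genes and 57 peaks were accounted for, with values by library for called and start-site peaks; for listed pathway genes, values were given for called genes. The members and lists were chosen with earlier results of these data known. Results for some listed genes are not reported here.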

Additional observations from a re-analysis of the deposited data

Results flagged for a closer look

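In 5 of 42 sets of 5 libraries (21 peaks in 2 lines), 1 library stood far from the other 4 in normalized read count, where chance flags about 1 in 20 sets. At the Adra2a start site βTC6 replicate 2, the pure library with the fewest reads in peaks, had 36.9, where the other βTC6 libraries had 43.8 to 46.4. At the Adra2a peak 62.3 kb downstream αTC1 replicate 2 had 2.95, against 5.74 to 6.5 in the others. At the Chrm3 peak 202.8 kb upstream βTC6 replicate 5 had 67.3, against 35.8 to 42. At the Chrm3 peak 289.5 kb downstream αTC1 replicate 1 had 2.52, against 3.93 to 4.5. At the Adra1b peak 11.7 kb downstream βTC6 replicate 5 had 0.282, against 1.14 to 1.49. Without the library in question, 4 of these peaks stayed called, and the Chrm3 peak at 289.5 kb had a log2 fold change of 1.97 and was no longer called.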

How the results depend on the processing

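The count of called receptor genes was 2, and Adra2a and Chrm3 were called under every RNA-seq alternative run. It was 3 on the FDR alone (with Chrm4) and 3 with no filter on low values (with Adrb1). Of the called receptor peaks, 14 were higher in βTC6 and 6 in αTC1. With a pseudocount of 5 the counts were 5 and 2, with edgeR on recovered reads 23 and 7, and on the FDR alone 40 and 12. With a pseudocount of 0.5 they were 21 and 6, where 17.3% and 7.11% of all peaks were called. The recovered reads gave 13794 and 5739 calls over all peaks, against 8409 and 3502. Leaving out each replicate gave 14 to 17 and 5 to 6. Replicates 1 to 3 alone gave 13 and 5, and replicates 4 and 5 alone 18 and 7. Of the 52 peaks past the FDR, 43 followed the share of αTC1 cells in the mixtures, and the share over all peaks past the FDR was not computed. For the tested receptor genes and the peaks called or at a start site, none of the results reversed: 419 kept their side of the threshold, 24 fell under it and 1 passed it. Among the other peaks some signs depended on scaling. Over all 57 peaks, 42 log2 fold changes were positive and 15 negative, against 40 and 17 after quantile normalization and 41 and 16 after median scaling. With the replicate number as a block, 2 genes and 14 and 6 peaks were called. Deviations of the libraries correlated between -0.06 and 0.07 for any pairing of the lines. The largest ATAC-seq value, 0.069, was that of replicate 5 of both lines. Whether same-numbered libraries shared handling was not tested. Genes with under 3 counts per library are beyond what this depth can compare.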
